A study of Homo sapiens with 12 samples.

Results

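The genes described here are 10 genes of the NRF2 antioxidant pathway and its redox enzymes: NFE2L2, KEAP1, NQO1, HMOX1, GCLC, GCLM, TXN, TXNRD1, GPX4 and PRDX1. They were chosen by name, as the rows with these gene symbols, out of 19037 transcripts measured in both assays, and each has 1 transcript in the tables. Earlier results of these data were known when they were chosen, so comparisons of the 10 with all genes are a description only. All 10 passed the filter on low counts in both assays. The data are ribosome footprints and RNA from tumours of 22Rv1, a human prostate cancer cell line, grown under the skin of male NSG mice that were 6 to 8 weeks old when injected. NSG mice lack mature lymphocytes but keep their own myeloid cells, fibroblasts and vessels. Tumours received zotatifin at 0.3 mg/kg in 5% dextrose, or the dextrose alone as vehicle, by injection into the peritoneum, and were taken 6 h later. Zotatifin blocks the RNA helicase eIF4A, which opens structure in the 5′ leaders of mRNAs ahead of the scanning ribosome. Both treatments gave 3 footprint libraries and 3 RNA libraries, 12 libraries in 4 groups, and the footprint and RNA library of a given number came from 1 tumour lysate.

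NRF2, the product of NFE2L2, is a transcription factor that is made continuously and destroyed quickly. KEAP1 holds it in the cytoplasm and hands it to a ubiquitin ligase built on CUL3. When oxidants or electrophiles modify KEAP1, NRF2 escapes, pairs with a small MAF protein and binds antioxidant response elements (AREs) at genes for glutathione synthesis, thioredoxin reduction, quinone reduction and haem breakdown. TXNRD1 and GPX4 are selenoproteins, whose mRNAs carry a UGA codon that is read as selenocysteine.

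The ARE core was searched as TGACNNNGC on both strands in the RefSeq promoter windows of GRCh38.p14, from 250 bases before to 50 bases after each start site. Of 35116 windows, 13.3% held it. Windows were found for 8 of the 10 genes, all but HMOX1 and PRDX1, and 3 of the 8 (KEAP1, GCLM and TXNRD1) held a match in at least 1 window. GPX4 had 3 windows, NFE2L2, KEAP1 and TXNRD1 had 2 each, and the rest had 1. The 13.3% counts windows and the 3 of 8 counts genes, so these shares cannot be compared. KEAP1 had 2 matches, GCLM 1 and TXNRD1 3. One site of each is shown, chosen by hand after the matches were seen, because NRF2 is known to bind elements with this core, with the core in capitals and 10 bases on each side, read 5′ to 3′ on the strand that carries TGAC. The other KEAP1 match and 1 of the other TXNRD1 matches read on the same strand as the gene, so the shared orientation of the 3 shown comes from the choice.
KEAP1, chr19:10502784-10502812, + strand: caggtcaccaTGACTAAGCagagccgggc
GCLM, chr1:93909446-93909474, + strand: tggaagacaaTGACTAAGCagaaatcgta
TXNRD1, chr12:104286920-104286948, - strand: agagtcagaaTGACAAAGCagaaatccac
The cores shown for KEAP1 and GCLM are the same 9 letters, of which the search fixed all but the NNN. The core of the other KEAP1 match differs from that of GCLM, so this likeness also comes from the choice. Measured from the start site of its own window, the KEAP1 core spans 31 to 23 bases before it, the GCLM core 34 to 26 and the TXNRD1 core 102 to 94. The TXNRD1 window belongs to a start site at 104287032 and the KEAP1 window to one at 10502771, each inside its gene. Only the GCLM start site, at 93909430, is the end of the gene's span. A match is a description of these letters only, and windows without one may have an ARE elsewhere.

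Total counts ran from 5761921 to 7121802 in vehicle RNA, 6594884 to 8153674 in zotatifin RNA, 1592316 to 2013968 in vehicle footprints and 838135 to 1540867 in zotatifin footprints. Levels are given as CPM, counts scaled to TMM-adjusted library size, which makes them relative to the other mRNAs of the library. All 9 prostate epithelial markers reported here, KLK3 and HOXB13 among them, were detected in every library of both assays. Of these 9, 2 (FOXA1 and KRT18) were higher with zotatifin in footprints and 0 lower, with summed footprints of 3777 to 5036 CPM with vehicle and 5001 to 5836 CPM with zotatifin. In RNA edgeR called 0 of the 9, with sums of 3308 to 4360 and 4141 to 4423 CPM. Whether reads of host cells were removed before counting is not given in the sources used here, and no such step was added. Of 12 fibroblast markers, 8 were tested and 5 were lower with zotatifin in each assay: their summed footprints were 703 to 1188 CPM with vehicle and 255 to 471 CPM with zotatifin, and their summed RNA 341 to 675 and 145 to 241 CPM. Of 11 myeloid markers, 5 were tested and 2 were lower in each assay, with summed footprints of 81.6 to 376 and 38.8 to 79.7 CPM and summed RNA of 19.3 to 62.3 and 13.2 to 22.7 CPM. CD14 was at 0 in every footprint library and TYROBP in every RNA library. The part of these markers in the results below was not tested. In such bulk samples, fewer cells of a type and less RNA per cell cannot be told apart.

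**Figure D1:**
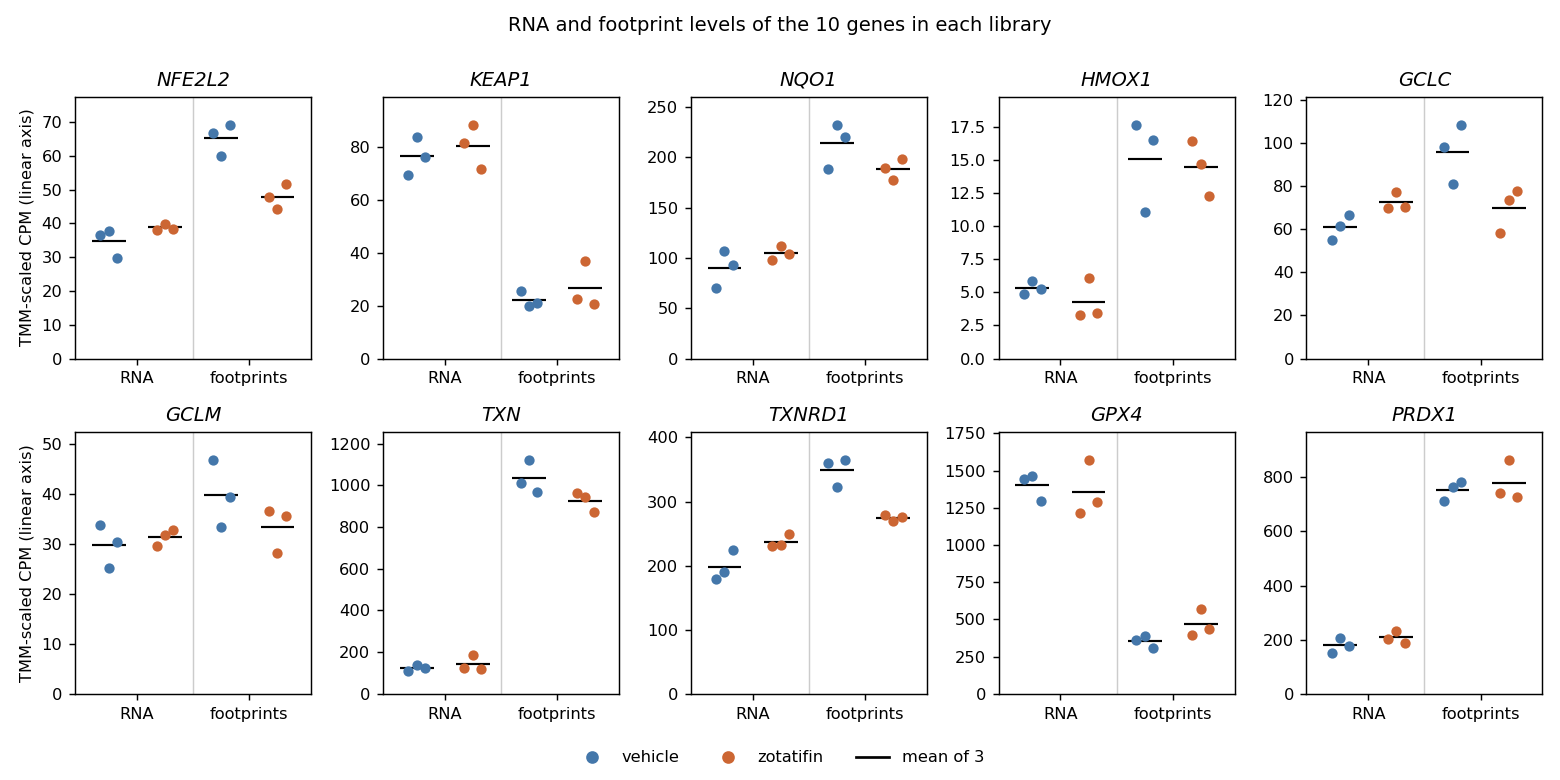
RNA and footprint levels (TMM-scaled CPM, linear axes from 0) of the 10 genes in each library, vehicle in blue and zotatifin in orange, with the mean of 3 as a bar. Footprints of NFE2L2, GCLC and TXNRD1 lie lower in all 3 zotatifin tumours than in any vehicle tumour, and those of GPX4 lie higher, while their RNA shows no such shift in the same direction.

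After zotatifin, footprints of the thioredoxin reductase TXNRD1 fell and those of the lipid peroxidase GPX4 rose, and neither change was seen in RNA. Of the 10 genes, 1 rose and 1 fell in footprints (edgeR quasi-likelihood test, adjusted p under 0.05). Of all 9544 genes tested, 7.14% were called, 3.22% higher and 3.92% lower with zotatifin. At an unadjusted p under 0.05, 4 of the 10 passed in footprints, beside 22.1% of all genes. In RNA 0 of the 10 were called by edgeR or by DESeq2, and 1 (TXNRD1) had an unadjusted p under 0.05. Of all 13118 genes tested in RNA, edgeR called 1.72%, of which 0.808% were higher and 0.907% lower as shares of all genes, and 18.3% had an unadjusted p under 0.05. The median log2 change of the 10 was −0.17 in footprints, against 0.0030 over all genes tested, and 0.18 in RNA, against −0.0023. Changes were below 0 for 7 of the 10 in footprints, as for 49.7% of all genes, and for 2 of the 10 in RNA, as for 50.3%. Footprints of 5 genes (NFE2L2, GCLC, TXN, TXNRD1 and GPX4) did not overlap between the treatments, as was the case for 26.4% of genes. In RNA this held for 3 genes (NFE2L2, GCLC and TXNRD1), each higher with zotatifin, against 23.1% of genes.

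The regulators come first. Footprints of NFE2L2 (ENST00000397062, chromosome 2, 177230303 to 177264727) were 66.8, 59.9 and 69.3 CPM in the vehicle tumours and 47.7, 44.1 and 51.7 CPM in the zotatifin tumours. Behind these values were 108 to 136 counts in each vehicle tumour and 36 to 80 in each zotatifin tumour. The log2 change was −0.43 ± 0.15 (SE), with the groups apart but an adjusted p of 0.086, so that the difference was not called. NFE2L2 RNA was 29.8 to 37.7 CPM with vehicle and 38.2 to 39.9 CPM with zotatifin (log2 change 0.17 ± 0.15, adjusted p = 0.58). Thus the mRNA of the transcription factor was no scarcer in any zotatifin tumour than in the vehicle tumours, while its footprints were lower in all 3.

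KEAP1, the inhibitor of NRF2 (ENST00000171111, chromosome 19, 10486125 to 10503356), had footprints of 25.6, 20.0 and 21.0 CPM with vehicle and 22.6, 36.8 and 20.7 CPM with zotatifin. Only zotatifin tumour 2 stood above the vehicle tumours, and without it the log2 change turned from 0.19 ± 0.24 (adjusted p = 0.68) to −0.043. KEAP1 RNA was 69.4 to 83.6 CPM with vehicle and 71.4 to 88.3 CPM with zotatifin (0.073 ± 0.13, adjusted p = 0.81). The log2 ratio of NFE2L2 to KEAP1 footprints within a library compares the factor with its inhibitor. It was 1.39, 1.58 and 1.72 with vehicle and 1.08, 0.26 and 1.32 with zotatifin, so that the groups did not overlap (difference −0.68). Zotatifin library 2 held the lowest value, and without it the difference was −0.36. A two-sided exact permutation test gave p = 0.1 (0.2 adjusted over 4 such ratios), where 0.1 is the smallest p that 3 against 3 can give. Over the 12 libraries, with each assay centred, the genes whose log2 levels followed those of NFE2L2 most closely were CNST (r = 0.929), CNOT11 (r = 0.929) and SET (r = 0.918), out of 9453 genes. These values share libraries and depth and are a description only.

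GCLC and GCLM are the catalytic and the modifier subunit of glutamate-cysteine ligase, the first and limiting enzyme of glutathione synthesis. Footprints of GCLC (ENST00000229416, chromosome 6, 53497341 to 53545101) were 98.3, 81.0 and 109 CPM with vehicle and 58.1, 73.6 and 77.6 CPM with zotatifin. All zotatifin values lay below all vehicle values, with a log2 change of −0.45 ± 0.15 that was not called (adjusted p = 0.061). Of 11 alternative fits, 8 did not call it and 3 did. The 3 were without vehicle library 2 (−0.56, adjusted p = 0.028), with no filter on low counts (−0.46, adjusted p = 0.036) and with the replicate number as a block (−0.47, adjusted p = 0.041). No pairing of tumours by that number was seen across treatments. With 1 library left out, adjusted p ran up to 0.276 and the change was as small as −0.33. GCLC RNA ran the other way, from 55.3, 61.5 and 66.6 CPM to 69.8, 77.6 and 70.5 CPM (0.25 ± 0.13, adjusted p = 0.31). GCLM footprints (ENST00000370238, chromosome 1, 93885199 to 93909430) overlapped, at 33.3 to 46.7 CPM with vehicle and 28.2 to 36.4 CPM with zotatifin (−0.23 ± 0.19, adjusted p = 0.50), on 23 to 95 counts per library. GCLM RNA was 25.0 to 33.7 and 29.5 to 32.8 CPM (0.078 ± 0.16, adjusted p = 0.84). The log2 ratio of GCLC to GCLM footprints was 1.27 ± 0.19 with vehicle and 1.06 ± 0.36 with zotatifin (SD, n = 3 each), a difference within the spread (exact permutation test, two-sided, p = 0.5, 0.5 adjusted over the 4 ratios).

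TXN encodes thioredoxin, a small protein that reduces disulphides in other proteins, and TXNRD1 the cytosolic selenoprotein that recharges it with electrons from NADPH. Footprints of TXNRD1 (ENST00000525566, chromosome 12, 104215779 to 104350307) were 360, 323 and 365 CPM with vehicle and 279, 270 and 276 CPM with zotatifin. The 3 zotatifin tumours lay close together and below every vehicle tumour, a fall of 0.34 on the log2 scale (SE 0.10, adjusted p = 0.039). It was no longer called when any tumour other than vehicle 2 was left out, with adjusted p up to 0.165 and log2 changes of −0.35 to −0.31, and it was also lost with upper quartile scaling (−0.32, adjusted p = 0.056). TXNRD1 RNA was 179, 191 and 225 CPM with vehicle and 231, 232 and 249 CPM with zotatifin (0.26 ± 0.12, adjusted p = 0.26). The RNA and footprint changes of this gene lay on opposite sides of 0.

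TXN footprints (ENST00000374517, chromosome 9, 110243810 to 110256507) were 1010, 1121 and 968 CPM with vehicle and 965, 942 and 871 CPM with zotatifin. The groups were apart by a narrow margin, and the log2 change of −0.16 ± 0.10 was not called (adjusted p = 0.38). TXN RNA was 112 to 138 CPM with vehicle and 118 to 186 CPM with zotatifin (0.19 ± 0.15, adjusted p = 0.52), and its highest value, in zotatifin tumour 2, set the direction: without that library the change was −0.034. The log2 ratio of TXN to TXNRD1 footprints was 1.56 ± 0.20 with vehicle and 1.75 ± 0.082 with zotatifin (SD, n = 3 each; exact permutation test, two-sided, p = 0.3, adjusted p = 0.4). TXN and PRDX1 are genes with processed pseudogenes, so some of their reads may belong to near-identical copies.

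GPX4 is the selenoprotein that reduces lipid peroxides in membranes, and its loss leads to ferroptosis. It was the only one of the 10 genes called as higher in footprints, while KEAP1 (0.19) and PRDX1 (0.044) had changes above 0 that were not called. Footprints of GPX4 (ENST00000354171, chromosome 19, 1103994 to 1106779) were 363, 390 and 311 CPM with vehicle and 394, 570 and 439 CPM with zotatifin. The lowest zotatifin value stood just above the highest vehicle value, and the log2 change was 0.39 ± 0.12 (adjusted p = 0.046). It was no longer called when vehicle tumour 1, vehicle tumour 3, zotatifin tumour 2 or zotatifin tumour 3 was left out (adjusted p up to 0.212), and without zotatifin tumour 2, the highest, the change was 0.24. GPX4 RNA was 1299 to 1467 CPM with vehicle and 1215 to 1571 CPM with zotatifin (−0.047 ± 0.13, adjusted p = 0.89).

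The 2 selenoproteins among the 10 genes thus moved in opposite directions in footprints. The log2 ratio of GPX4 to TXNRD1 footprints was 0.012, 0.27 and −0.23 with vehicle and 0.50, 1.08 and 0.67 with zotatifin. The groups did not overlap (difference 0.73; exact permutation test, two-sided, p = 0.1, the smallest possible, and 0.2 adjusted over the 4 ratios). Footprints of each gene were already apart, in opposite directions, so the ratio had to be apart and its p had to be the smallest. It restates the 2 changes and is no further evidence of them.

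PRDX1, the abundant cytosolic peroxiredoxin that uses thioredoxin to reduce hydrogen peroxide (ENST00000262746, chromosome 1, 45511051 to 45522890), had overlapping footprints of 713, 763 and 781 CPM with vehicle and 741, 863 and 728 CPM with zotatifin. The log2 change was 0.044 ± 0.10 (adjusted p = 0.84), and that of its RNA was 0.22 ± 0.13 (152 to 207 CPM against 189 to 233 CPM, adjusted p = 0.40). NQO1 encodes the quinone reductase that is the classic readout of NRF2 activity (ENST00000320623, chromosome 16, 69709401 to 69726560). Its footprints were 189, 233 and 221 CPM with vehicle and 189, 178 and 199 CPM with zotatifin (−0.17 ± 0.11, adjusted p = 0.39). NQO1 RNA was 69.9, 107 and 93.3 CPM with vehicle and 98.1, 112 and 104 CPM with zotatifin (0.22 ± 0.14, adjusted p = 0.43). For both genes the treatments overlapped in each assay.

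HMOX1, the haem oxygenase that is induced by NRF2 and is also abundant in macrophages (ENST00000216117, chromosome 22, 35381096 to 35394207), was the scarcest of the 10 by counts, with 12 to 36 footprint counts and 26 to 39 RNA counts per library. Its footprints were 17.7, 11.1 and 16.5 CPM with vehicle and 16.5, 14.7 and 12.3 CPM with zotatifin (−0.081 ± 0.28, adjusted p = 0.90). HMOX1 RNA was 4.90, 5.89 and 5.28 CPM with vehicle and 3.26, 6.07 and 3.44 CPM with zotatifin (−0.35 ± 0.34, adjusted p = 0.62). At this depth a change of the size seen for TXNRD1 could not be told from none. In the same libraries the summed RNA of the myeloid markers was 19.3 to 62.3 CPM with vehicle and 13.2 to 22.7 CPM with zotatifin, and their part in HMOX1 was not tested.

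Translational efficiency (TE) is the ratio of footprints to RNA, given here per tumour as the log2 ratio of CPM. In vehicle tumours the 10 genes spanned most of the range of 9452 genes. TXN stood highest, at 3.05 ± 0.12 (SD, n = 3), above 99.1% of genes, followed by PRDX1 (2.08 ± 0.18), HMOX1 (1.47 ± 0.49), NQO1 (1.27 ± 0.15), NFE2L2 (0.92 ± 0.28), TXNRD1 (0.82 ± 0.16), GCLC (0.64 ± 0.22) and GCLM (0.42 ± 0.046). KEAP1 (−1.79 ± 0.32) and GPX4 (−1.99 ± 0.077) stood lowest, above 11.7% and 9.16% of genes, and the median gene was at −0.19. Of neighbours in this order, the 3 values of TXN were all above those of PRDX1, those of PRDX1 above those of HMOX1, and those of GCLM above those of KEAP1, while the values of each other pair of neighbours overlapped. Whether coding sequence or whole transcripts were counted is not given in the sources used here, and that choice can shift the ratio between genes.

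**Figure D2:**
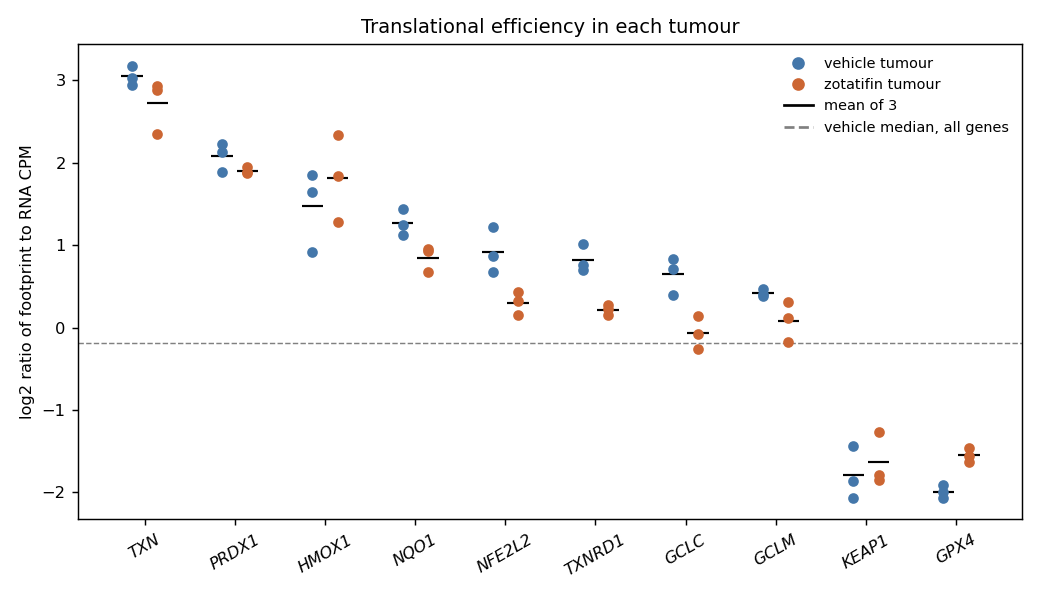
Log2 ratio of footprint to RNA CPM of each gene in each tumour, vehicle in blue and zotatifin in orange, with the mean of 3 as a bar and the median of all genes in vehicle tumours as a dashed line. The zotatifin tumours lie below the vehicle tumours for NFE2L2, NQO1, GCLC, GCLM, TXN and TXNRD1 and above them for GPX4.

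With zotatifin, TE of TXNRD1 and GCLC fell and TE of GPX4 rose in the model that pairs the footprint and RNA library of each tumour, with 3 tumours against 3. TE of TXNRD1 went from 1.01, 0.76 and 0.70 with vehicle to 0.27, 0.22 and 0.15 with zotatifin. In the model without a tumour term its log2 change was −0.57 ± 0.16 (adjusted p = 0.052), and with the tumour as a block −0.58 ± 0.12 (adjusted p = 5.1e-04). The groups stood well apart, and the blocked call held without any 1 tumour (adjusted p up to 0.012). TE of GCLC went from 0.83, 0.40 and 0.71 to −0.26, −0.076 and 0.14 (−0.67 ± 0.20, adjusted p = 0.077; with the block −0.67 ± 0.17, adjusted p = 0.0063). That was the largest TE change among the 10, and the blocked call was lost only without zotatifin tumour 1 (adjusted p = 0.054). TE of GPX4 went from −2.00, −1.91 and −2.06 to −1.63, −1.46 and −1.56 (0.47 ± 0.19, adjusted p = 0.20; with the block 0.47 ± 0.12, adjusted p = 0.0077). All 3 zotatifin tumours stood above the vehicle tumours, and the blocked call was lost only without vehicle tumour 3 (adjusted p = 0.062).

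In all, 0 of the 10 genes were called in TE without the block, where edgeR called 1.69% of 9454 genes, 0.476% as higher and 1.22% as lower. At an unadjusted p under 0.05 the unblocked model gave 4 of the 10, beside 15.3% of all genes. DESeq2 called 2 (TXNRD1 and GCLC) of the 9 to which it gave an adjusted p, beside 3.5% of 6651 genes. With the tumour as a block 1 of the 10 rose and 2 fell, where 8.66% of genes were called, 3.62% as higher and 5.05% as lower. TE groups did not overlap for 7 of the 10 genes, beside 26.3% of genes. The median TE change of the 10 was −0.30, against 0.016 over all genes, and 7 of the 10 values were below 0, as were 48.1% of those of all genes.

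TE of NFE2L2 went from 0.86, 0.67 and 1.22 to 0.32, 0.15 and 0.43, with the groups apart. Its log2 change of −0.57 ± 0.21 was not called (adjusted p = 0.16, and 0.062 with the block), although without vehicle tumour 2 the blocked fit called it (−0.68, adjusted p = 0.042). TE of NQO1 went from 1.43, 1.13 and 1.24 to 0.95, 0.67 and 0.93 (−0.36 ± 0.18, adjusted p = 0.35, and 0.061 with the block). Neither gene therefore passed, with no overlap between the treatments in either. Changes of TXN (−0.32), GCLM (−0.28) and PRDX1 (−0.14) were smaller, with blocked adjusted p of 0.14, 0.49 and 0.46. The SEs of KEAP1 (0.14 ± 0.26) and HMOX1 (0.30 ± 0.43) were larger than their changes.

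The authors' deposited table of footprints relative to RNA gives FDR under 0.05 for 7 of the 10 genes, beside 18.3% of its 11446 genes. Converted to log2, the authors' deposited table has −0.69 for GCLC, −0.64 for TXNRD1, −0.53 for NFE2L2, −0.52 for NQO1, −0.34 for TXN, −0.19 for PRDX1 and 0.44 for GPX4. For similar changes, its FDR was far below the adjusted p of the blocked fit for TXN (1.5e-09 against 0.14) and PRDX1 (0.0028 against 0.46). The 2 scales of significance are therefore not alike. Each of the 10 estimates in the authors' deposited table has the same sign as the TE change from the counts, and both rest on the same libraries. The authors' deposited table of RNA has adjusted p under 0.05 for 0 of the 10, with the smallest, 0.25, for TXNRD1.

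**Figure D3:**
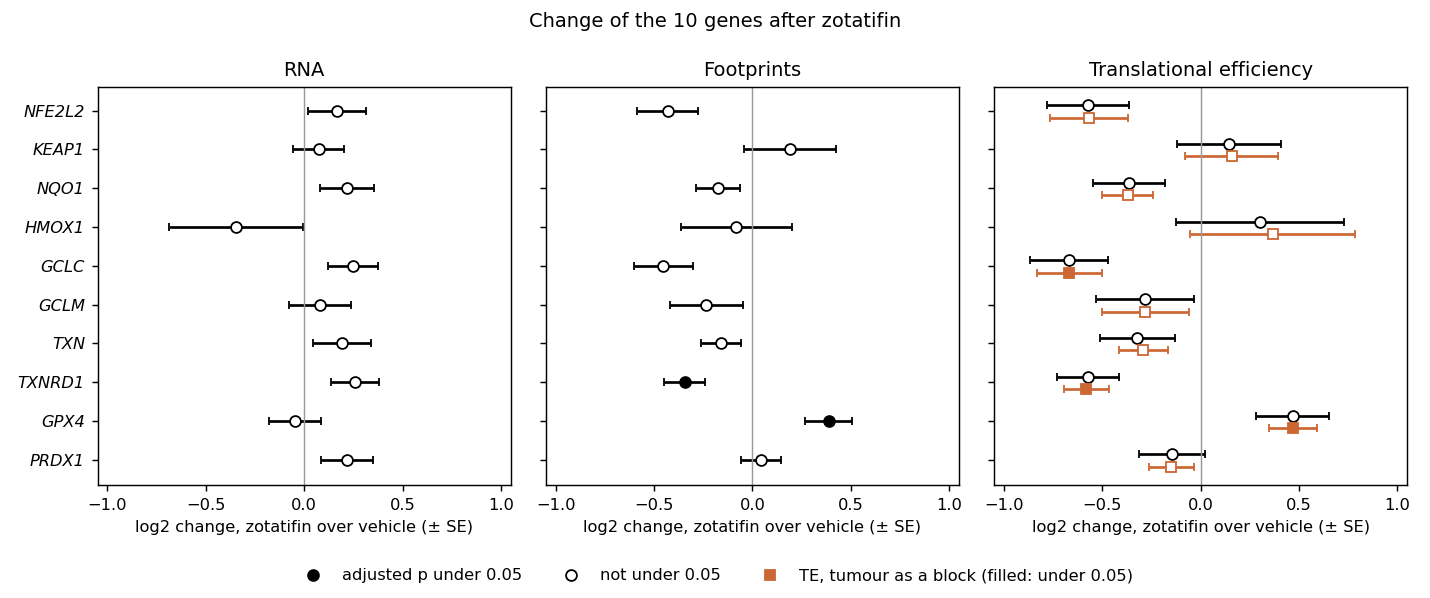
Log2 change (zotatifin over vehicle, ± SE) of the 10 genes in RNA, footprints and TE. Filled symbols have an adjusted p under 0.05: TXNRD1 and GPX4 in footprints, none in RNA, and GCLC, TXNRD1 and GPX4 in TE with the tumour as a block (orange squares).

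The wider pathway was read from 7 lists with 134 genes, the 10 included, of which 132 matched a symbol and 112 were tested in footprints. Of these 112, 6 rose and 6 fell in footprints, beside 3.22% and 3.92% of all genes, with a median log2 change of −0.00023 against 0.0030 over all genes. At an unadjusted p under 0.05, 34 of the 112 passed, beside 22.1% of all genes. In RNA 2 of 123 rose and 0 fell (median 0.090), beside 0.808% and 0.907% of all genes. In TE 0 of 112 rose and 2 fell (median −0.038), beside 0.476% and 1.22% of all genes. With the tumour as a block 2 rose and 9 fell (median −0.043), beside 3.62% and 5.05%. The counts of each list below are to be read against these shares.

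Among regulators of NRF2, 0 of 13 tested genes rose in footprints and 2 fell, with a median of −0.087. GSK3B, a kinase that marks NRF2 for a KEAP1-independent route of destruction, had 89.4, 81.6 and 83.2 CPM with vehicle and 48.6, 35.6 and 55.6 CPM with zotatifin. It changed the most of any list gene called in footprints (−0.82 ± 0.16, adjusted p = 0.0015). CUL3, the scaffold of the ligase that KEAP1 serves, went from 195 ± 7.59 to 135 ± 17.0 CPM (SD, n = 3 each; −0.52 ± 0.12, adjusted p = 0.0062). Both calls held without any 1 library. RNA of these genes was not called in either, and TE of GSK3B fell by 0.92 on the log2 scale (SE 0.22, adjusted p = 0.021; −0.95 with the block, adjusted p = 1.5e-04). The unblocked TE call of GSK3B was lost without any vehicle tumour or zotatifin tumour 1 (adjusted p up to 0.142), and the blocked call held without any 1 tumour. Of the 2 called genes, CUL3 thus acts with KEAP1 and GSK3B apart from it. None of the other regulators tested was called in footprints, among them KEAP1 (0.19, adjusted p = 0.68), RBX1 (0.062, adjusted p = 0.81) and BTRC (−0.42, adjusted p = 0.40).

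In the list of quinone, haem and iron targets, 2 of 18 rose and 2 fell in footprints (median 0.081). TXNIP, an inhibitor of thioredoxin, was placed in this list too and is among those that rose, so the count is not of such targets alone. UGDH, which makes UDP-glucuronic acid for conjugation, had footprints of 685 ± 65.5 CPM with vehicle and 490 ± 52.4 CPM with zotatifin. It fell by 0.48 on the log2 scale (SE 0.11, adjusted p = 0.0062), a call that held whichever library was left out. Its TE fell too (−0.70 ± 0.17, adjusted p = 0.027), a call lost without any 1 tumour (adjusted p up to 0.100) but held in every blocked fit (−0.70, adjusted p = 2.6e-05). FTH1, the heavy chain of ferritin, fell to 0.755 times its vehicle level of 264 ± 19.4 CPM (log2 change −0.41 ± 0.11, adjusted p = 0.019), and its RNA change was −0.49 (adjusted p = 0.072). FTH1 has processed pseudogenes, so its reads are uncertain, and the footprint call did not hold without vehicle 1, vehicle 3, zotatifin 1 or zotatifin 3 (adjusted p up to 0.096).

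Footprints of the biliverdin reductase BLVRB rose by 0.44 ± 0.13 (adjusted p = 0.041), a call lost without any library but vehicle 2 (adjusted p up to 0.227). RNA of BLVRB changed by 0.35 ± 0.16 (adjusted p = 0.24), with the groups apart, and its TE by 0.12 (adjusted p = 0.83, and 0.73 with the block). TXNIP, the inhibitor of thioredoxin, rose both in RNA, from 316 ± 14.0 to 486 ± 71.0 CPM (0.62 ± 0.13, adjusted p = 0.018), and in footprints (0.36 ± 0.11, adjusted p = 0.041). Its RNA call did not hold without vehicle 1, vehicle 3 or zotatifin 3 (adjusted p up to 0.136), nor its footprint call without vehicle 1, vehicle 2, zotatifin 2 or zotatifin 3 (up to 0.267). BLVRA RNA rose from 32.6 ± 9.49 to 55.9 ± 9.84 CPM (0.78 ± 0.18, adjusted p = 0.030; not held without vehicle 1, vehicle 3, zotatifin 1 or zotatifin 2, up to 0.198). TXNIP and BLVRA were the only list genes called in RNA.

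In the thioredoxin system and the peroxiredoxins, 3 of 15 genes rose and 1, TXNRD1, fell in footprints (median 0.044). TXNRD2, the mitochondrial thioredoxin reductase and also a selenoprotein, had 109, 123 and 113 CPM with vehicle and 173, 166 and 144 CPM with zotatifin (0.47 ± 0.12, adjusted p = 0.016). Its direction was opposite to that of TXNRD1, its cytosolic counterpart, and the call was lost without vehicle library 1 or zotatifin library 1 (adjusted p up to 0.107). TXNRD2 RNA changed by 0.25 ± 0.13 (adjusted p = 0.31), with the groups apart, as TXNRD1 RNA did. Its TE change of 0.25 was not called (adjusted p = 0.53, and 0.32 with the block). PRDX2, a cytosolic peroxiredoxin, rose by 0.35 ± 0.11 (adjusted p = 0.040; not held without vehicle 1, vehicle 3, zotatifin 2 or zotatifin 3, up to 0.174). RNA of PRDX2 changed by 0.23 (adjusted p = 0.37) and its TE by 0.15 (adjusted p = 0.74, and 0.53 with the block). MSRB2, a mitochondrial methionine sulphoxide reductase, rose by 0.70 ± 0.21 (adjusted p = 0.034; lost without any library but zotatifin 3, up to 0.160). RNA of MSRB2 changed by 0.058 (adjusted p = 0.91) and its TE by 0.68 (adjusted p = 0.20, and 0.10 with the block).

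Over the selenoproteins and the factors that insert selenocysteine, 2 of 22 rose (TXNRD2 and GPX4) and 1 fell (TXNRD1) in footprints, with a median of 0.16, and edgeR called 0 of 23 in RNA, with 4 at an unadjusted p under 0.05. Of 28 genes of glutathione synthesis and use, edgeR called 0 in footprints (median −0.054), with 5 at an unadjusted p under 0.05, and 0 in RNA (median 0.12), with 3. Of 7 glutathione peroxidases, superoxide dismutases and related enzymes tested in footprints, GPX4 alone was called (median 0.057). Of 14 genes of NADPH supply, 1 fell in footprints: IDH1, the cytosolic isocitrate dehydrogenase, from 1341 ± 60.0 to 986 ± 138 CPM (−0.44 ± 0.11, adjusted p = 0.012; lost without vehicle library 1, 0.053). TE of IDH1 changed by −0.63 (adjusted p = 0.055) and with the block by −0.65 (adjusted p = 1.6e-04), a blocked call that held without any 1 tumour.

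The blocked TE fit also called 5 further list genes, which are named here after their values were seen. CUL3 (−0.48, adjusted p = 0.014), NFE2L1, a relative of NFE2L2 (−0.69, adjusted p = 0.047), the glutathione transferase GSTO1 (−0.53, adjusted p = 0.032) and TXNL1, a thioredoxin-like protein (−0.49, adjusted p = 0.018), fell, and the selenoprotein SELENON rose (0.74, adjusted p = 0.034). None of these 5 was called without the block, and each blocked call was lost without at least 3 single tumours (adjusted p up to 0.106, 0.272, 0.318, 0.069 and 0.243).

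**Figure D4:**
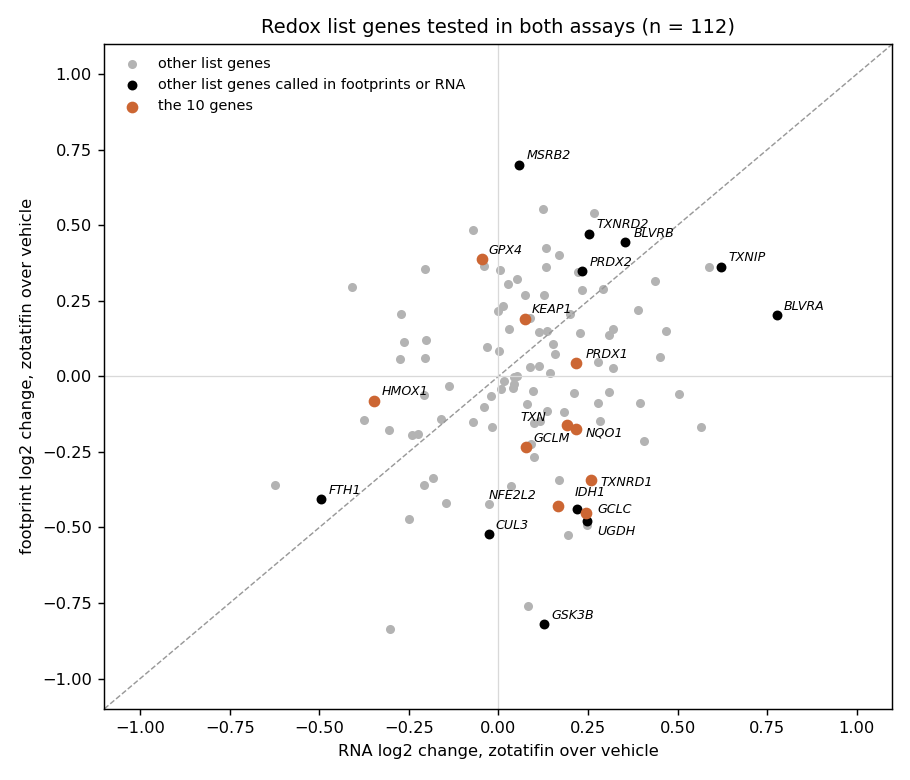
Footprint log2 change against RNA log2 change (zotatifin over vehicle) for the 112 list genes tested in both assays, with the 10 genes in orange, other list genes called in footprints or RNA in black, and the rest in grey. Points below the dashed line of equal change have lower footprints than their RNA change alone would give; TXNRD1, GCLC and NFE2L2 lie there with UGDH, IDH1, CUL3 and GSK3B, and GPX4 lies above it.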

How the data were processed

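Raw counts per transcript were deposited by the authors for RNA and for footprints (fragments of 24 to 34 nt). Per the submitters' processing notes, cutadapt 2.3, UMI-tools, Bowtie2 2.3.5 and DESeq2 were used on hg38; order, strand and counted region: not given in the sources used here. The authors' deposited RNA table holds a mean signal in normalised counts, log2 fold changes, a Wald score and p-values. The authors' deposited footprint table holds an estimate read as a natural log, with an adjusted p-value: over 1566 genes above 200 counts it weighted the log2 footprint change by 0.665 and the RNA change by −0.666, near the natural log of 2 (0.693).

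Groups came from sample titles and column names; the treatment field contradicts the title in 6 samples, and the code 226 was read as zotatifin. In R 4.3.3, edgeR 4.0.16 (filterByExpr with minimum count 10 and minimum total 15, TMM, robust quasi-likelihood test, Benjamini-Hochberg over all genes) compared zotatifin with vehicle in each assay. TE was the interaction of assay and treatment over 12 libraries, also with the tumour as a block. SE is the log2 change over the root of F. The pairing comes from shared lysates: over 4889 genes with means of at least 50 counts, deviations from group means correlated at 0.217 to 0.440 between the 2 assays of a tumour, and between different tumours of a treatment at −0.381 to 0.119. Vehicle and zotatifin libraries of the same number correlated at −0.095 to 0.181, and those of unlike number at −0.196 to 0.169. No pairing of tumours by number across treatments was therefore seen, though this check cannot exclude one. Replicates are labelled biological, with no word on whether each is a separate mouse, so p-values measure the spread between these tumours. Alternatives were other scalings, no filter, DESeq2 1.42.0, a block and leaving out each tumour. The fits were also run on simulated counts, with changes larger than those of the 10 genes and no effect shared by the libraries of a tumour. That run therefore does not bear on smaller changes or on the pairing.

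The members and lists were chosen with earlier results of these data known. Named besides the 10 were called list genes averaging 20 or more counts, at most 6 per list and comparison. Markers of muscle and fat (8 genes), endothelium (7) and red blood cells (8) were also measured: of those tested in footprints, 0 of 4 and 2 of 5 were lower for the first and last, none of the endothelial genes was tested, and in RNA 0 of 6, 0 of 2 and 1 of 5 were lower.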

Additional observations from a re-analysis of the deposited data

How the results depend on the processing

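Over all genes, calls with the setting changed were 421 by DESeq2 in place of 681 in footprints (8.47% of the 4972 genes to which DESeq2 gave an adjusted p, against 7.14% of 9544), 624 with no filter on low counts in place of 225 in RNA, and 819 with the tumour as a block in place of 160 in TE, of which 159 were shared. With the replicate number as a block across treatments, where no pairing of tumours was seen, RNA calls were 527. Leaving out 1 tumour at a time gave 185 to 726 calls in footprints, 11 to 396 in RNA, 56 to 132 in TE and 454 to 661 in TE with the block. The low ends were without vehicle 1 in footprints, RNA and TE and without zotatifin 2 in TE with the block. Of the 10 genes, calls in footprints were 2, but 1 with upper quartile scaling, 3 with no filter or with the replicate number as a block (GCLC added), and 0 to 3 with 1 tumour left out (0 without vehicle 1, vehicle 3, zotatifin 2 or zotatifin 3). Calls in TE were 0, but 1 with upper quartile scaling, 1 with no filter, 2 by DESeq2 and 3 with the tumour as a block, where leaving out 1 tumour gave 2 to 4. In the same 4 settings the shares of all genes called in TE were 1.99%, 1.29%, 3.5% and 8.66%. No member was called in RNA in any alternative. Direction turned in 9 cases, each with 1 tumour left out and none of a called value. The ranges of log2 change there were −0.043 to 0.37 (KEAP1), −0.27 to 0.065 (HMOX1) and −0.029 to 0.091 (PRDX1) in footprints, −0.026 to 0.17 (GCLM), −0.034 to 0.31 (TXN) and −0.16 to 0.025 (GPX4) in RNA, −0.024 to 0.33 (KEAP1) in TE and −0.017 to 0.35 (KEAP1) with the block. The cause was not tested. Fits with the tumour as a block and 1 tumour left out were chosen after seeing the data. Scaling moved the median of all genes by less than 0.1, and the share of footprint calls that were higher was 45.1%, 45.8% with DESeq2-style size factors and 51.7% with upper quartile scaling. The shallow zotatifin footprint libraries limit HMOX1, KEAP1 and GCLM most, with at least 12, 26 and 23 counts.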
